A study of Mus musculus with 12 samples.

Results

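Gadd45a, Gadd45b and Gadd45g are the 3 genes of the mouse Gadd45 family, named for growth arrest and DNA damage. All probe sets whose symbol in the platform's probe table is one of these names were taken, which gave 5 of the 45037 probe sets that are not controls. They were 1449519_at for Gadd45a, 1450971_at, 1449773_s_at and 1420197_at for Gadd45b, and 1453851_a_at for Gadd45g. Of 18193 genes with a symbol of their own on the array, these were 3. The RNA is labelled as from CTLL-2, an established line of mouse cytotoxic T cells that is grown with interleukin 2 (IL-2) and was kept in 50 U/mL of it. It was measured on 12 Affymetrix Mouse Genome 430 2.0 arrays. Every group went without IL-2 for 14 h before cycloheximide, which stops protein synthesis, was added at 20 µg/mL. The IL-2 group (4 arrays) had 30 min of cycloheximide and then 100 U/mL IL-2 for 4 h. The 4.5 h group (4 arrays) had cycloheximide for 4.5 h, and the 30 min group (4 arrays) had it for 30 min, both without IL-2. The labels do not say whether cycloheximide stayed on during the IL-2 step, and cells without cycloheximide were not analysed here. CTLL-2 is 1 cell line. Nothing in the labels tells whether replicates came from separate cultures, so p-values reflect only the scatter among these arrays, possibly technical. In bulk RNA, fewer cells of a kind and less RNA per cell cannot be told apart.

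The GADD45 proteins are small acidic nuclear and cytoplasmic proteins without enzyme activity that act by binding partners. They bind and activate the kinase MEKK4 (Map3k4), which feeds the p38 and JNK branches of the MAP kinase cascade, and they also bind PCNA, p21 (Cdkn1a) and the Cdk1 and cyclin B1 complex. Their mRNAs are made quickly after stress or cytokines. In general, Gadd45a is known as a target of p53, Gadd45b as a target of NF-kappaB and of TGF-beta signalling, and Gadd45g as a gene first cloned as a cytokine response gene. In T cells, Gadd45b and Gadd45g are known for supporting p38 activity and interferon gamma production after IL-12 and IL-18.

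The promoters of the 3 genes are shown as a description, and their part in the signals was not tested. Each sequence is the 250 bases before the annotated start, from RefSeq on GRCm38.p6, 5′ to 3′ on the gene's strand. Capitals mark matches to the motifs named below.

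Gadd45a, chr6:67037408-67037657, minus strand: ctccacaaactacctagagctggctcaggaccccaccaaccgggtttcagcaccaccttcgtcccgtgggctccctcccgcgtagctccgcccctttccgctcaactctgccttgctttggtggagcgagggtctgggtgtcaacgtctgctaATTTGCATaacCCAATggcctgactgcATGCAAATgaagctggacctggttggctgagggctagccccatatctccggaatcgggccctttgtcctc

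Gadd45b, chr10:80929841-80930090, plus strand: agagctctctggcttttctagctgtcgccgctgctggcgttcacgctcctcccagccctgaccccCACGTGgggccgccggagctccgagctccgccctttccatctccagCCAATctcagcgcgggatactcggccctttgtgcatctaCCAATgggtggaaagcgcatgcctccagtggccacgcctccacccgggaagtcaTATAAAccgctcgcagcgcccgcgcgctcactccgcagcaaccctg

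Gadd45g, chr13:51846425-51846674, plus strand: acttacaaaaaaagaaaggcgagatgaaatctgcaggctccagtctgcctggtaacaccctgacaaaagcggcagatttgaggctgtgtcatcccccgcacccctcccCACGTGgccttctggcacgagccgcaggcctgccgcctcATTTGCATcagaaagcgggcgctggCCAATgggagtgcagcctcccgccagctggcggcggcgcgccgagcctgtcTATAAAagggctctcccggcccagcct

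All 3 genes were matched in the RefSeq table by symbol. In the same annotation the protein-coding genes span bases 67035096 to 67037407 of chromosome 6 for Gadd45a (2312 bp), 80930091 to 80932204 of chromosome 10 for Gadd45b (2114 bp) and 51846675 to 51848475 of chromosome 13 for Gadd45g (1801 bp). The windows had a GC content of 59.2% for Gadd45a, 65.2% for Gadd45b and 62.0% for Gadd45g, against a median of 52.4% over 32851 windows of 27025 genes. A total of 10 motifs were searched on both strands, and no matches overlapped each other. The CCAAT box (CCAAT), present in 33.85% of all windows, was in all 3. It lay 86 to 82 bases upstream of the start in Gadd45a, 139 to 135 and 100 to 96 in Gadd45b, and 78 to 74 in Gadd45g. The octamer (ATTTGCAT), in 1.601% of windows, was in Gadd45a at 97 to 90 bases upstream and, on the other strand, at 70 to 63, and in Gadd45g at 103 to 96. It was not in the Gadd45b window. The E-box CACGTG, in 6.021% of windows, and the TATA box TATAAA, in 12.368%, were both in Gadd45b and in Gadd45g and not in the Gadd45a window. The E-box lay at 185 to 180 in Gadd45b and 142 to 137 in Gadd45g, and the TATA box at 46 to 41 in Gadd45b and 27 to 22 in Gadd45g. None of the 3 windows held the STAT motif TTCNNNGAA (7.02% of windows), the AP-1 motif TGANTCA (6.749%), the CRE TGACGTCA (1.546%), the kappaB motif GGGNNTTCC (4.977%), the FOXO motif GTAAACA (3.166%) or the SMAD motif GTCTAGAC (0.167%).

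The Gadd45 values below are the deposited linear signals, which had been scaled before deposit. Array medians ran from 57.6 to 78.1 signal units on the 11 arrays fitted. The array labelled IL-2 replicate 3 was left out because it lacked T cell transcripts. The summed signal of 12 T cell genes was 458.7 on it, against 162155 to 174997 on the other IL-2 arrays, 193558 to 243634 on the 4.5 h arrays and 188866 to 275427 on the 30 min arrays. Of these genes, 10 exceeded 500 on each of the 11 arrays, while Cd2 was at most 14.7 and Cd8a lay between 87.3 and 334.8. The summed signal of 11 muscle genes was 184191 on IL-2 replicate 3, against 2690 to 2984 on the other IL-2 arrays, 3955 to 5231 at 4.5 h and 2626 to 3572 at 30 min. Myod1, the muscle master regulator, was at 19045 on that array and at most 84.6 on the others. Of the 11 muscle genes 9 exceeded 500 on that array, while Des (92.4) and Tnnt2 (86.4) did not. Ckm, at 1690 there, was below its range on the others. Col3a1, a fibroblast gene, was at 8760 on that array and at most 82.1 on the others. The summed signal of 6 myeloid genes was 5045 to 7967 in the IL-2 group, 5504 to 5821 at 4.5 h and 7877 to 10859 at 30 min. On the 11 arrays Fcgr3 (4482 to 10235) made up most of the myeloid sum, with each other gene at most 408.6, and Ckm (2097 to 4563) most of the muscle sum, with each other gene at most 277.9. The sum of 5 B cell genes stayed at or below 384.4. Of 6 fibroblast genes only Thy1, which is also on the T cell list, exceeded 500 in each group, and 3 erythroid genes summed to at most 176.1. The part of these differences in the Gadd45 results was not tested. Arrays were scanned on 3 days. The 4.5 h arrays had a day of their own, so scan day and group cannot be told apart there. The first day held IL-2 and 30 min replicates 1, 2 and 4, and the second held replicate 3 of both groups.

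By its brightest probe set, Gadd45b was higher on every IL-2 array than on any 4.5 h array, and higher on every 4.5 h array than on any 30 min array. This probe set, 1450971_at, which stands for the gene, had signals of 18055, 18538 and 18031 in the IL-2 group. The 4.5 h arrays had 6982, 7149, 6423 and 5631, and the 30 min arrays 3199, 3445, 3479 and 2931. The order of levels by this probe set was thus IL-2, then 4.5 h, then 30 min, with no overlap between neighbours. Of the 27022 probe sets tested, 20.7% had all IL-2 arrays above all 4.5 h arrays. All 4.5 h arrays lay above all 30 min arrays for 17.3%. The share with both was not counted. The means were 18208 ± 286 (SD, n = 3) with IL-2, 6546 ± 684 (n = 4) at 4.5 h and 3263 ± 254 (n = 4) at 30 min.

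Differences below are on the log2(signal + 16) scale, from 1 limma model over the 27022 probe sets with sufficient signal, and a call needed both a Benjamini-Hochberg adjusted p under 0.05 and a change of 2-fold or more. Gadd45b rose 2.79-fold with IL-2 against 4.5 h of cycloheximide, a log2 difference of 1.48 ± 0.13 (SE; 95% interval 1.18 to 1.78, limma adjusted p = 7.92e-05). Of the 3 genes it was the 1 called in this comparison, in which 12.1% of all probe sets were called and 6.63% were called upwards. All IL-2 arrays exceeded all 4.5 h arrays for 20.7% of probe sets. Against 30 min, Gadd45b rose 5.57-fold in the IL-2 group (log2 2.48 ± 0.13, 95% interval 2.18 to 2.77, limma adjusted p = 3.52e-06). It was again the 1 of 3 genes called, with 10.6% of all probe sets called and 6.32% called upwards. Its difference ranked 123 from the top of 27022 against 30 min and 740 from the top against 4.5 h.

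Between 4.5 h and 30 min of cycloheximide alone, Gadd45b was 2.00-fold higher at 4.5 h (log2 1.00 ± 0.12, 95% interval 0.72 to 1.27, limma adjusted p = 2.85e-04). The estimate before rounding was 0.998, just below the 2-fold threshold, so none of the 3 genes was called by its brightest probe set, against 13.2% of all probe sets called and 6.48% called upwards. This value moved across the threshold with the processing, to 1.08 after centring on array medians, 1.00 (1.001 unrounded) with a pseudocount of 1 and 1.17 as the mean over probe sets. Leaving out single arrays gave 0.95 to 1.07, and it was called without 30 min replicate 2 (1.02), 30 min replicate 3 (1.03), 4.5 h replicate 3 (1.00) or 4.5 h replicate 4 (1.07). The 3 comparisons share their arrays and are not independent of each other. In IL-2 against 30 min the groups differ in time as well as in IL-2. In the comparisons with the 4.5 h group the arrays compared also differ in scan day.

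**Figure D1:**
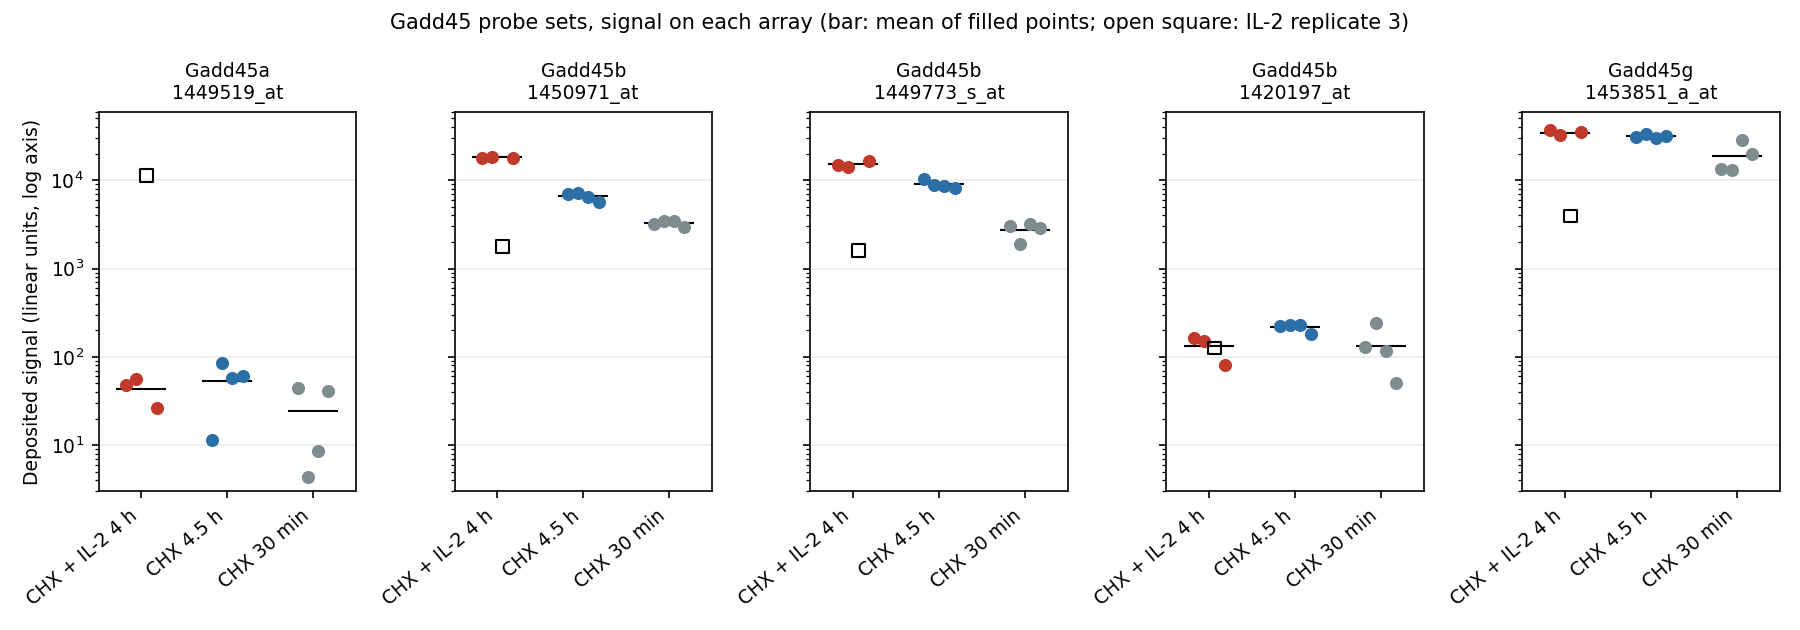
Deposited signal on each array (log axis) for the 5 Gadd45 probe sets in the IL-2, 4.5 h and 30 min groups. Points are arrays, bars the means of the arrays fitted, and the open square is IL-2 replicate 3. The lowest 4.5 h value of the Gadd45b probe set 1450971_at, 5631, lies above its 30 min values of 2931 to 3479, while the groups of Gadd45a overlap.

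A second bright Gadd45b probe set, 1449773_s_at, whose suffix marks probes shared by more than 1 transcript, ordered the groups in the same way with other spacing. It had 14831, 14176 and 16531 in the IL-2 group, 10270, 8815, 8701 and 8072 at 4.5 h, and 3010, 1879, 3187 and 2905 at 30 min. The groups again did not overlap, which held for 20.7% of probe sets with IL-2 over 4.5 h and for 17.3% at 4.5 h over 30 min. Its means were 15179 ± 1215 (SD, n = 3) with IL-2, 8964 ± 930 (n = 4) at 4.5 h and 2745 ± 589 (n = 4) at 30 min. Between IL-2 and 30 min it gave nearly the value of the first probe set, 2.49 ± 0.19 (limma adjusted p = 2.17e-05), and was called. At 4.5 h against 30 min it was called with 1.72 ± 0.18 (limma adjusted p = 1.11e-04), a 3.31-fold rise. With IL-2 against 4.5 h it differed by 0.76 ± 0.19 (limma adjusted p = 0.0140), which is 1.70-fold and below the threshold. Whether Gadd45b is called with IL-2 at matched time therefore depended on the probe set. The mean over its 3 probe sets gave 0.51 (limma adjusted p = 0.0241). That mean takes in the dim probe set 1420197_at, given below, which had -0.70 in this comparison.

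The gap between these probe sets was measured on each array as the log2 value of 1449773_s_at minus that of 1450971_at. It was -0.28, -0.39 and -0.13 in the IL-2 group, 0.56, 0.30, 0.44 and 0.52 at 4.5 h, and -0.09, -0.87, -0.13 and -0.01 at 30 min. The gap was thus positive on all 4 arrays at 4.5 h and negative on the other 7. Its means were -0.27 ± 0.13 (SD, n = 3) with IL-2, 0.45 ± 0.11 (n = 4) at 4.5 h and -0.27 ± 0.40 (n = 4) at 30 min. The array's Actb control, a 3′ minus a 5′ probe set of the same mRNA, also stood apart at 4.5 h. It averaged 0.25 ± 0.03 with IL-2, 0.56 ± 0.17 at 4.5 h and 0.29 ± 0.04 at 30 min, and the lowest 4.5 h array (0.42) exceeded the highest IL-2 (0.27) and 30 min (0.33) arrays. The Gapdh control averaged -0.22 ± 0.05, -0.08 ± 0.08 and -0.21 ± 0.09 in the same order of groups. The part of this 3′ to 5′ difference in the Gadd45b gap was not tested. The third Gadd45b probe set, 1420197_at, was dim. It had 164.9, 151.0 and 80.2 in the IL-2 group, 225.4, 229.1, 228.3 and 183.4 at 4.5 h, and 127.9, 241.9, 117.5 and 50.6 at 30 min. All its IL-2 arrays lay below all 4.5 h arrays, as for 21.0% of probe sets, opposite to the bright ones. It was called in no comparison, with -0.70 ± 0.38 for IL-2 against 4.5 h (limma adjusted p = 0.207), 0.78 ± 0.36 for 4.5 h against 30 min (adjusted p = 0.122) and 0.08 ± 0.38 for IL-2 against 30 min (adjusted p = 0.910).

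**Figure D2:**
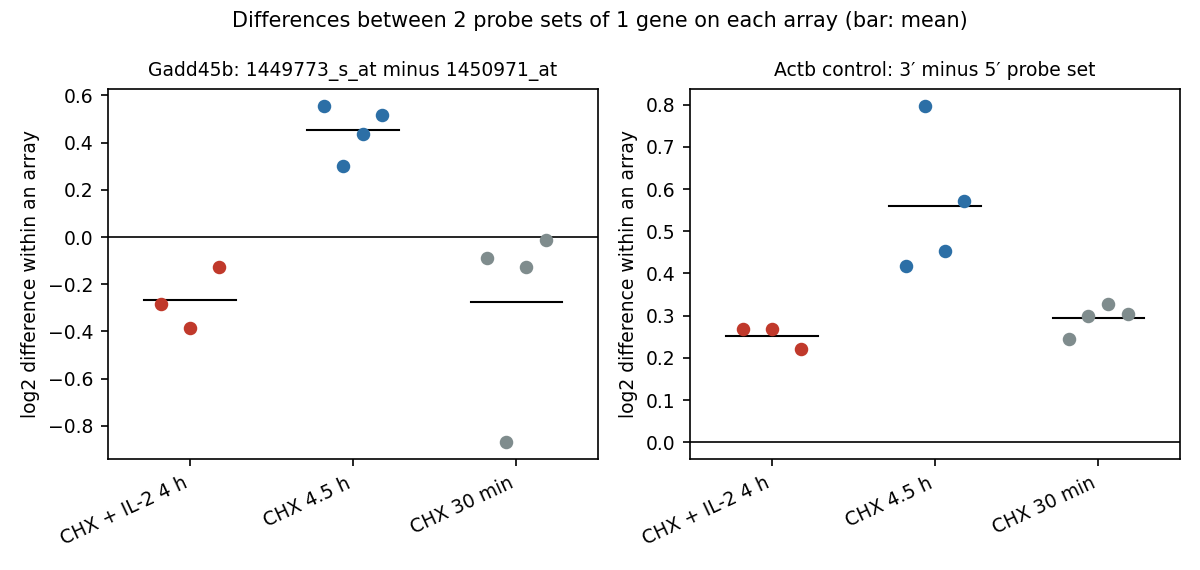
Log2 difference within each array between 2 probe sets of 1 gene, for Gadd45b on the left and the Actb control on the right. Points are arrays and bars are means over the IL-2 arrays (n = 3), the 4.5 h arrays (n = 4) and the 30 min arrays (n = 4). The Gadd45b gap is above 0 on the 4.5 h arrays alone, and the Actb gap is highest there, with a mean of 0.56.

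Gadd45g was higher on every IL-2 and 4.5 h array than on any 30 min array, with a wide spread at 30 min. The IL-2 arrays had 36928, 32140 and 34979, the 4.5 h arrays 30853, 33533, 30176 and 31447, and the 30 min arrays 13249, 12961, 28370 and 19758. The IL-2 and 4.5 h arrays overlapped, while all 7 exceeded all 30 min arrays. The spread was widest at 30 min, where replicate 3, the 1 array of that group scanned on the second day, was the highest. Means were 34682 ± 2407 (SD, n = 3) with IL-2, 31502 ± 1450 (n = 4) at 4.5 h and 18584 ± 7239 (n = 4) at 30 min, and the coefficients of variation were 6.94%, 4.60% and 39.0% in that order.

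Gadd45g differed by 0.14 ± 0.25 between IL-2 and 4.5 h of cycloheximide (95% interval -0.41 to 0.68, limma adjusted p = 0.726), an interval that holds changes of either sign below 2-fold. After quantile normalization this difference was 0.78 (limma adjusted p = 0.0466) and after centring on ribosomal protein genes 0.84 (adjusted p = 0.0431), both below 2-fold and so not called. It was 1.79-fold higher at 4.5 h than at 30 min (log2 0.84 ± 0.23, 95% interval 0.33 to 1.34, limma adjusted p = 0.0181). It was 1.96-fold higher with IL-2 than at 30 min (log2 0.97 ± 0.25, 95% interval 0.43 to 1.52, limma adjusted p = 0.0160). Both missed the 2-fold threshold. All arrays of one group exceeded all of the other for 17.3% of probe sets at 4.5 h over 30 min and for 16.5% with IL-2 over 30 min. Within the first scan day, with 3 arrays in each of the groups, the IL-2 difference was 1.20 and was called (limma adjusted p = 0.0177). Without 30 min replicate 3 the difference was 1.20 for IL-2 against 30 min and 1.07 for 4.5 h against 30 min, both called. The IL-2 difference was also called without IL-2 replicate 2 (1.03) or 30 min replicate 4 (1.03). Whether Gadd45b and Gadd45g differ from each other in their response to IL-2 was not tested.

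**Figure D3:**
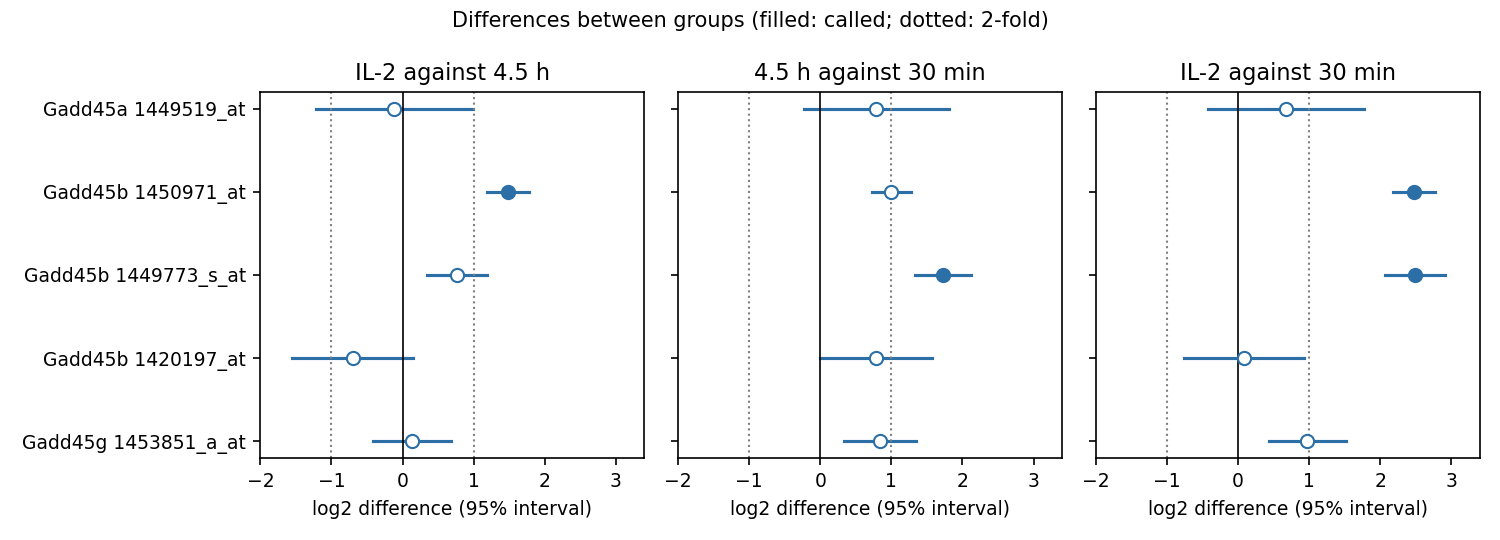
Log2 differences with 95% intervals for the 5 Gadd45 probe sets in the 3 comparisons. Filled points were called and dotted lines mark 2-fold. Gadd45b 1450971_at lies at 1.48 for IL-2 against 4.5 h and 2.48 for IL-2 against 30 min, and the intervals of Gadd45a include 0 in each comparison.

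Gadd45a was near the floor of the measurement. The IL-2 arrays had 48.2, 55.5 and 26.3, the 4.5 h arrays 11.5, 84.3, 57.0 and 60.4, and the 30 min arrays 44.2, 4.4, 8.5 and 41.4. All 3 groups overlapped, and several values lay under the signal of 33.6 that the filter on low values corresponds to. Means were 43.3 ± 15.2 (SD, n = 3) with IL-2, 53.3 ± 30.4 (n = 4) at 4.5 h and 24.6 ± 21.1 (n = 4) at 30 min. The differences were -0.11 ± 0.50 for IL-2 against 4.5 h (95% interval -1.22 to 0.99, limma adjusted p = 0.895), 0.79 ± 0.46 for 4.5 h against 30 min (-0.23 to 1.81, adjusted p = 0.225) and 0.68 ± 0.50 for IL-2 against 30 min (-0.43 to 1.78, adjusted p = 0.375). The first interval includes a 2-fold fall and the others a 2-fold rise, so changes of that size were not excluded. All 5 Gadd45 probe sets passed the filter, Gadd45a with a mean log2 value of 5.65 just above the minimum of 5.63.

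On the array left out, IL-2 replicate 3, 4 of the 5 Gadd45 probe sets lay outside the range of the other IL-2 arrays. The dim Gadd45b probe set 1420197_at, at 126.3, lay within it. Gadd45a gave 11341 there, which is 135 times the highest of the other 11 arrays. Gadd45b gave 1776 by 1450971_at and 1600 by 1449773_s_at, and Gadd45g 3943, each below the lowest 30 min array. With that array included, so that all 12 were fitted, no Gadd45 probe set was called in any comparison, against 4.43%, 6.98% and 3.45% of all probe sets called for IL-2 against 4.5 h, 4.5 h against 30 min and IL-2 against 30 min. Gadd45b then gave 0.64 for IL-2 against 4.5 h (limma adjusted p = 0.578) and 1.64 for IL-2 against 30 min (adjusted p = 0.168). Gadd45g turned to -0.64 (adjusted p = 0.570) and 0.19 (adjusted p = 0.896), and Gadd45a to 1.79 (adjusted p = 0.499) and 2.58 (adjusted p = 0.353). The 4.5 h against 30 min estimates do not use that array, but its spread enters them, and the adjusted p became 0.358 for Gadd45b, 0.101 for its second probe set and 0.445 for Gadd45g.

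The genes whose log2 values followed each Gadd45 gene most closely over the 11 arrays were named by Pearson's r among 11919 genes. The 11 arrays fall into 3 groups and share their scaling, so r mainly describes the group pattern and carries no test. Gadd45b was closest to Lta (0.994), which encodes lymphotoxin alpha, Il4ra (0.990), the IL-4 receptor alpha chain, Rfc3 (0.989), a subunit of the clamp loader that places PCNA on DNA, Cstf1 (0.988), a pre-mRNA cleavage factor, and Naf1 (0.988), an assembly factor of H/ACA ribonucleoproteins. Lta averaged 8281 ± 825 with IL-2, 1639 ± 132 at 4.5 h and 413 ± 17.9 at 30 min. Gadd45g was closest to Atad3a (0.971), a mitochondrial ATPase, Rfx5 (0.969), a factor of MHC class II genes, Ccdc86 (0.967), Nol3 (0.966) and Odc1 (0.966), the first enzyme of polyamine synthesis. Odc1 averaged 12207 ± 1293 with IL-2, 10941 ± 583 at 4.5 h and 5788 ± 1670 at 30 min, so that, as for Gadd45g, IL-2 and 4.5 h lay near each other and above 30 min. The closest genes to Gadd45a were Tgfbi (0.886), Clca4a (0.872), Zfp14 (0.849), Suco (0.845) and Cpne6 (0.828), of which all but Suco were dim in each group. Between members, r was 0.728 for Gadd45b with Gadd45g, 0.316 for Gadd45a with Gadd45b and 0.365 for Gadd45a with Gadd45g.

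Of 14 measured genes for proteins that bind or follow GADD45 in its pathways (the kinase cascade and partners), 2 were called lower with IL-2 against 4.5 h and none higher, with a median difference of -0.31. Over all 12754 genes tested, 5.04% were called higher and 5.94% lower, with a median of -0.07. Map3k4, the kinase that GADD45 proteins bind and activate, averaged 730 ± 94.4 with IL-2, against 1773 ± 141 at 4.5 h (log2 -1.27 ± 0.17, limma adjusted p = 5.78e-04). Map2k3, a kinase that activates p38, averaged 1565 ± 116, against 4664 ± 184 (log2 -1.57 ± 0.16, limma adjusted p = 1.17e-04). Both were also higher at 4.5 h than at 30 min, Map3k4 by 1.07 ± 0.16 (limma adjusted p = 7.19e-04, 845 ± 157 at 30 min) and Map2k3 by 1.23 ± 0.15 (limma adjusted p = 2.17e-04, 2001 ± 368 at 30 min). For 4.5 h against 30 min 2 genes were called higher and 1 lower, with a median of -0.10. The gene that fell was Cdkn1a, the p21 inhibitor of cyclin-dependent kinases, with 3906 ± 1099 at 4.5 h against 9949 ± 1971 at 30 min (log2 -1.36 ± 0.21, limma adjusted p = 8.64e-04). With IL-2 against 30 min 2 were called lower and none higher, at a median of -0.37: Cdk1, which fell by 1.00 ± 0.17 on the log2 scale (limma adjusted p = 0.00173), and Ing1, a growth inhibitor that binds chromatin (log2 -1.23 ± 0.22, limma adjusted p = 0.00236). Map3k4 differed by -0.20 ± 0.17 there (limma adjusted p = 0.460) and Map2k3 by -0.34 ± 0.16 (adjusted p = 0.152), and neither was called. In either direction the calls were 14.3%, 21.4% and 14.3% of the list for IL-2 against 4.5 h, 4.5 h against 30 min and IL-2 against 30 min, and 11%, 12% and 11.4% of all genes tested. After centring on ribosomal protein genes the differences of Map3k4, Map2k3, Cdk1 and Ing1 kept their signs and were not called.

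Of 19 measured transcriptional regulators known to act on Gadd45 promoters, 4 passed the call upwards and 2 downwards with IL-2 against 4.5 h, at a median of 0.37. These were 21.1% and 10.5% of the list, against 5.04% and 5.94% of all genes tested, which had a median of -0.07. Myc, which represses Gadd45a in other cells, averaged 1803 ± 379 with IL-2 against 167 ± 59.2 at 4.5 h (log2 3.34 ± 0.29, limma adjusted p = 5.85e-05). Egr1, an immediate early factor, averaged 13548 ± 2559 against 1906 ± 960 (log2 2.92 ± 0.30, limma adjusted p = 1.33e-04). Foxo4, a forkhead factor, was lower, with 61.9 ± 8.33 against 211 ± 24.3 (log2 -1.54 ± 0.22, limma adjusted p = 7.80e-04). The other calls, named after their values were seen, were Rel and Jun, which were higher, and Jund, which was lower. With IL-2 against 30 min 4 were called higher and 1 lower, at a median of 0.39, with Egr1 at 3.74 ± 0.30 (limma adjusted p = 2.69e-05), Myc at 2.99 ± 0.29 (adjusted p = 7.55e-05) and Rel at 2.61 ± 0.28 (adjusted p = 1.44e-04). Over all genes 6.94% were called higher and 4.46% lower in that comparison, with a median of -0.03. For 4.5 h against 30 min 2 passed the call, both upwards, at a median of -0.25: Ddit3, the stress factor CHOP (log2 1.31 ± 0.18, limma adjusted p = 4.61e-04), and Rel, an NF-kappaB subunit (1.18 ± 0.26, adjusted p = 0.00609). Over all genes 7.22% were called higher and 4.75% lower there, with a median of 0.08. Rela differed by 0.42, -0.04 and 0.38, Foxo3 by 0.37, -0.64 and -0.26, and Atf4 by 0.34, -0.09 and 0.25 for IL-2 against 4.5 h, 4.5 h against 30 min and IL-2 against 30 min, and none of these was called.

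Some NF-kappaB target genes, a group to which Gadd45b is known to belong, rose in both groups measured at the later time. Of 13 measured, 6 were called higher and none lower at 4.5 h against 30 min (median 0.82), and 6 higher and none lower with IL-2 against 30 min (median 0.76). Each count was 46.2% of the list, against 7.22% and 6.94% of all genes tested. With IL-2 against 4.5 h limma called none at 2-fold, at a median of 0.05, with 6 at an unadjusted p under 0.05, all of which also had an adjusted p under 0.05. Over all genes tested 5.04% were called higher and 5.94% lower there. Bcl3, an atypical IkappaB protein, averaged 4408 ± 243 with IL-2, 2789 ± 343 at 4.5 h and 694 ± 149 at 30 min, which gave 2.00 ± 0.17 for 4.5 h against 30 min (limma adjusted p = 3.73e-05) and 2.66 ± 0.18 for IL-2 against 30 min (adjusted p = 1.20e-05). Relb, a subunit of the alternative pathway, gave 1.96 ± 0.19 (limma adjusted p = 8.23e-05) and 1.89 ± 0.20 (adjusted p = 1.52e-04) in these comparisons. Nfkbia, the inhibitor IkappaB alpha, gave 1.47 ± 0.17 for 4.5 h against 30 min (limma adjusted p = 1.84e-04), and Icam1, an adhesion molecule, 1.35 ± 0.14 for IL-2 against 30 min (adjusted p = 1.22e-04). With all 12 arrays, the counts called higher were 5 of 13 at 4.5 h and 3 of 13 with IL-2, each against 30 min. Over all genes tested 3.58% and 2.1% were called higher in these fits. After centring on ribosomal protein genes 5 of the 13 were called higher with IL-2 against 4.5 h. There the median of all genes tested moved to 0.63, and 26% of them were called higher.

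Of 18 other p53 targets measured, 1 was called higher and 3 lower with IL-2 against 4.5 h (median 0.00), none higher and 1 lower at 4.5 h against 30 min (median -0.34), and 2 higher and 4 lower with IL-2 against 30 min (median -0.31). In either direction these were 22.2%, 5.56% and 33.3% of the list, against 11%, 12% and 11.4% of all genes tested. Mdm2, the ubiquitin ligase of p53, was the gene called higher with IL-2 against 4.5 h (log2 1.19 ± 0.25, limma adjusted p = 0.00624), and it was named after its value was seen. Those called lower there were Bbc3 (-1.86 ± 0.33, limma adjusted p = 0.00227), which encodes the cell death protein PUMA, Trp53inp1 (-1.85 ± 0.34, adjusted p = 0.00299) and Sesn1 (-1.28 ± 0.24, adjusted p = 0.00311). Against 30 min, Sesn1 was lower by -1.61 ± 0.24 (limma adjusted p = 9.11e-04), and Aen (1.10 ± 0.17, adjusted p = 0.00105) and Pmaip1 (1.49 ± 0.23, adjusted p = 0.00105), the cell death gene NOXA, were higher with IL-2.

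Among 11 measured genes of growth arrest and the integrated stress response, 1 was called higher and none lower with IL-2 against 4.5 h, at a median of 0.23. This was Atf3, a stress-induced factor, with 1125 ± 71.3 against 213 ± 22.3 (log2 2.32 ± 0.14, limma adjusted p = 9.09e-06). At 4.5 h against 30 min 1 was called higher and 2 lower (median -0.42), and with IL-2 against 30 min 2 higher and 3 lower (median -0.17). In either direction the calls were 9.09%, 27.3% and 45.5% of the list in this order of comparisons. Over all genes tested they were 11%, 12% and 11.4%. Chac1, which degrades glutathione, had 361 ± 314 at 4.5 h against 3529 ± 469 at 30 min (log2 -3.52 ± 0.40, limma adjusted p = 1.82e-04), and differed by -4.27 ± 0.43 with IL-2 against 30 min (adjusted p = 1.04e-04). Ddit4, an inhibitor of mTORC1, differed by -1.57 ± 0.29 (limma adjusted p = 0.00248) and -2.28 ± 0.31 (adjusted p = 5.98e-04) in these comparisons. The gene called higher at 4.5 h was Ddit3, given above, and with IL-2 against 30 min Atf3 had 2.37 ± 0.14 (limma adjusted p = 4.53e-06).

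Several FOXO targets, genes linked to quiescence, were lower with IL-2 than at 4.5 h. Of 16 measured, 7 were called lower and 1 higher with IL-2 against 4.5 h (median -0.85), 8 lower and 1 higher with IL-2 against 30 min (median -1.03), and 4 lower and 1 higher at 4.5 h against 30 min (median -0.17). The calls lower were 43.8%, 50% and 25% of the list in this order, against 5.94%, 4.46% and 4.75% of all genes tested. The IL-2 and 30 min groups differ in time as well as in IL-2, so the count against 30 min cannot be assigned to IL-2 alone. The 4.5 h arrays had a scan day of their own, so the count against 4.5 h cannot be assigned to IL-2 alone either. Some FOXO targets are p53 targets too, and Bbc3, Trp53inp1 and Sesn1 stand in both lists. Ccng2, an atypical cyclin found in arrested cells, averaged 684 ± 52.3 with IL-2, 1542 ± 127 at 4.5 h and 7927 ± 736 at 30 min. It thus fell at 4.5 h against 30 min (log2 -2.35 ± 0.13, limma adjusted p = 1.09e-05) and in the IL-2 group against 4.5 h (-1.15 ± 0.14, adjusted p = 2.67e-04). Mxd4, a partner of Max that opposes Myc, differed by -2.41 ± 0.30 for IL-2 against 4.5 h (limma adjusted p = 3.91e-04) and by -3.61 ± 0.30 for IL-2 against 30 min (adjusted p = 3.40e-05). Cited2, a transcriptional coregulator, was the gene called higher with IL-2, with 2.82 ± 0.14 against 4.5 h (limma adjusted p = 5.73e-06). Pik3ip1, an inhibitor of PI3 kinase, was the gene called higher at 4.5 h against 30 min (log2 1.15 ± 0.19, limma adjusted p = 0.00135). With all 12 arrays 4 of 17 were called lower with IL-2 against 4.5 h and 4 of 17 against 30 min. After centring on ribosomal protein genes these were 3 and 5 of 16. Over all genes tested, 2.84% and 1.74% were called lower with all 12 arrays, and 1.2% and 1.54% after this centring.

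Of 8 measured genes of IL-12 and IL-18 signalling, 3 passed the call upwards and 1 downwards with IL-2 against 4.5 h (median -0.08). In either direction the calls were 50% of the list there, 12.5% at 4.5 h against 30 min and 12.5% with IL-2 against 30 min. Over all genes tested they were 11%, 12% and 11.4%. Ifng, the cytokine whose production GADD45 proteins are known to support, averaged 889 ± 150 with IL-2 against 86.7 ± 34.8 at 4.5 h (log2 3.19 ± 0.35, limma adjusted p = 1.93e-04). Il2ra, the IL-2 receptor alpha chain, averaged 5993 ± 280 against 1370 ± 154 (log2 2.12 ± 0.19, limma adjusted p = 7.68e-05), and Tbx21, the factor T-bet, 965 ± 176 against 2934 ± 258 (log2 -1.60 ± 0.23, limma adjusted p = 7.46e-04). Il2ra was the 1 gene called at 4.5 h against 30 min (median 0.30), where it was lower (log2 -1.78 ± 0.18, limma adjusted p = 9.53e-05). Ifng was the 1 gene called with IL-2 against 30 min (median 0.32), at 3.41 ± 0.35 (limma adjusted p = 1.12e-04). With all 12 arrays limma called none of the 8 in any comparison, with 2, 0 and 0 at an unadjusted p under 0.05 for IL-2 against 4.5 h, 4.5 h against 30 min and IL-2 against 30 min. Of 11 measured factors that bind AU-rich mRNA and set its decay, limma called none with IL-2 against 4.5 h (median -0.05), with 2 at an unadjusted p under 0.05. At 4.5 h against 30 min 1 was called higher (median 0.32), Tia1 (log2 1.38 ± 0.34, limma adjusted p = 0.0104), and with IL-2 against 30 min 1 (median 0.28), Zfp36l1 (1.31 ± 0.15, adjusted p = 2.06e-04). Each was 9.09% of these factors, near the 7.22% and 6.94% of all genes tested called higher in these comparisons. Zfp36, tristetraprolin, was 0.89 ± 0.19 higher with IL-2 against 4.5 h (limma adjusted p = 0.00551) and 0.89 ± 0.19 higher against 30 min (adjusted p = 0.00600), below the 2-fold threshold, and differed by 0.00 ± 0.17 at 4.5 h against 30 min.

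Smaller counts above also include genes outside the naming rule, given here after their values were seen. They are Ddit3 (higher) and Foxo4 (lower) among the regulators with IL-2 against 30 min, and Bbc3, Btg2 and Trp53inp1 (lower) among the p53 targets there. Asns was lower and Ddit3 higher among the stress genes with IL-2 against 30 min. Mxd4 and Fbxo32 were lower among the FOXO targets at 4.5 h against 30 min, where Cited2 was lower too, and Cited2 was higher with IL-2 against 30 min. Il12rb2 was higher with IL-2 against 4.5 h, as were Nfkbib, Nfkbie and Tnfaip3 at 4.5 h against 30 min. With all 12 arrays the calls for IL-2 against 4.5 h were 1 lower of 14 kinase cascade genes, 2 higher and 1 lower of 19 regulators, 2 lower of 18 p53 targets and 1 higher of 12 stress genes. Over all genes tested 1.56% were called higher and 2.84% lower in that fit. Of the list genes given above as called, Pmaip1 and Icam1 changed sign for IL-2 against 30 min with all 12 arrays, to -0.60 and -0.40. After centring on ribosomal protein genes, 3317 of 12754 genes tested were called higher with IL-2 against 4.5 h and 153 lower. The calls upwards were then 3 of 14 kinase cascade genes, 11 of 19 regulators, 7 of 18 p53 targets, 4 of 11 stress genes, 3 of 11 AU-rich decay factors, 1 of 16 FOXO targets and 3 of 8 genes of IL-12 and IL-18 signalling.

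**Figure D4:**
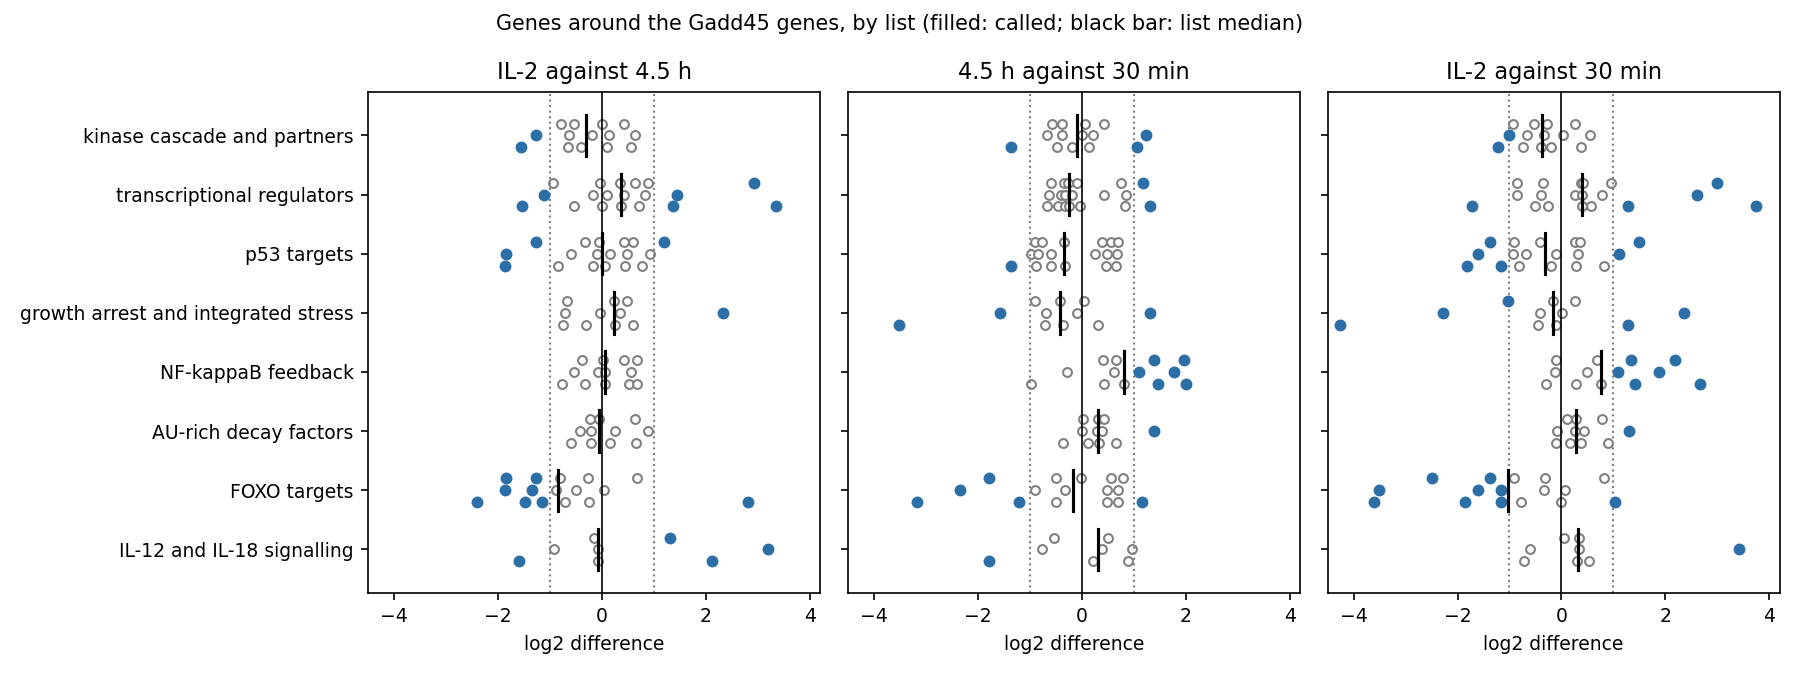
Log2 differences of the measured genes of 8 lists around the Gadd45 genes in the 3 comparisons. Points are genes, filled where called, black bars are list medians and dotted lines mark 2-fold. The NF-kappaB list has 6 of 13 genes called higher at 4.5 h against 30 min and again with IL-2 against 30 min, and none with IL-2 against 4.5 h.

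The choice of probe set, the array left out and the scaling each moved Gadd45 values. Centring on 49 ribosomal protein genes shifted the median of all probe sets by 0.69 for IL-2 against 4.5 h, -0.29 for 4.5 h against 30 min and 0.36 for IL-2 against 30 min. Under it Gadd45b gave 2.19, 0.69 and 2.88 in these comparisons and Gadd45g 0.84, 0.53 and 1.38, so both kept their direction. Relative to the median of all probe sets, the reported scale and this one placed Gadd45b at 1.50, 0.99 and 2.52 and Gadd45g at 0.15, 0.83 and 1.02, since centring adds 1 constant to each array. Quantile normalization, which adds no such constant, gave Gadd45b 1.85, 0.99 and 2.84 and Gadd45g 0.78, 0.64 and 1.42, so the small Gadd45g difference of IL-2 against 4.5 h was not kept on that scale.

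**Figure D5:**
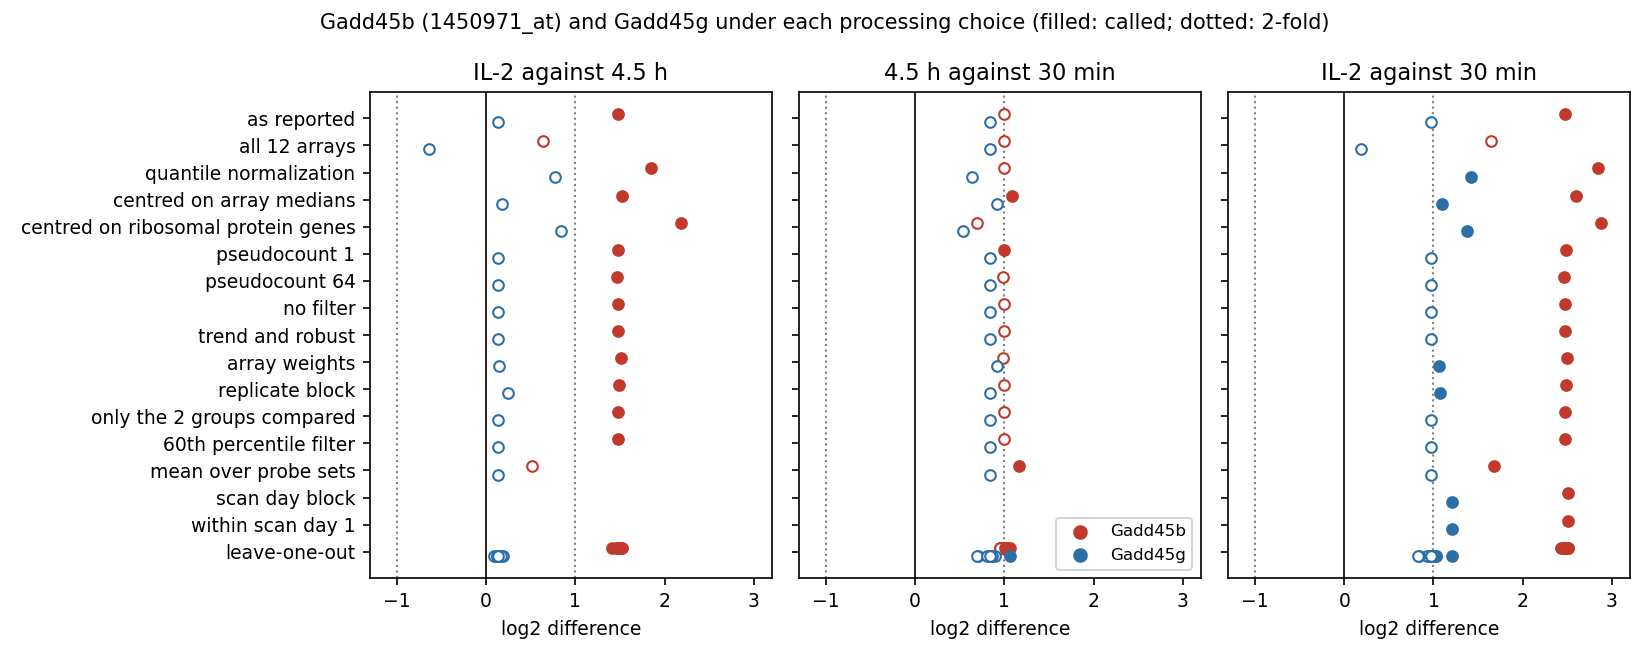
Log2 difference of Gadd45b (1450971_at, red) and Gadd45g (blue) under each processing choice in the 3 comparisons. Points are estimates, filled where called, and dotted lines mark 2-fold. For IL-2 against 30 min Gadd45b lies between 1.64 and 2.88, and it is not called with all 12 arrays.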

How the data were processed

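Gene expression was measured on 12 Affymetrix Mouse Genome 430 2.0 arrays. The authors' deposited table gives linear signal intensity for every probe set on each array. GCOS 1.3 is the tool named, per the submitters' processing notes. All arrays had a trimmed mean of 500 after leaving out 2% of probe sets at each end. How background was corrected and probes were summarised is not given in the sources used here. Scanner files deposited by the authors served only to number the scan days. The number of arrays limits the precision.

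Samples were grouped by the labels, and IL-2 replicate 3 was left out. Values were analysed as log2(signal + 16), which understates changes of dim probe sets. Of 45101 probe sets 64 controls were dropped, and the filter kept 27022 of the remaining 45037, those whose mean log2 value reached the 40th percentile. One symbol was given for 34945 of these 45037, several for 932 and none for 9160. The brightest probe set stood for a gene. A model with 3 group means was fitted to 11 arrays with limma 3.58.1 (R 4.3.3), with Benjamini-Hochberg adjustment over all probe sets tested. The fit was tested on simulated data.

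The members and gene lists were chosen with earlier results of these data known. Named genes were all members, the 5 genes most like each by Pearson's r, up to 3 called genes of each list and comparison by adjusted p, and 9 genes that regulate or bind the members. Map2k7, Ccnb1, Tdg, Trp53, Nfkb1, Pou2f1, Bax, Cnot1 and Bcl2a1b were not analysed here, and Map2k6, Mapk11, Plk2, Perp, Fas, Cebpb, Vldlr, Klf2, Irs2, Stat4 and Il18r1 were too dim to test. Alternatives covered scaling, pseudocount, filter, eBayes settings, array weights, groups fitted, blocks, probe sets and leaving out each array. Figures were drawn with python 3.11.15 and matplotlib 3.10.9.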

Additional observations from a re-analysis of the deposited data

Results flagged for a closer look

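Signals of 4 arrays were examined for 1 array standing apart in 15 sets, and 5 sets had such an array, where chance gives about 1 in 20. The count cannot be weighed against that share, since IL-2 replicate 3 was already known to be unlike the other arrays. In 4 of the 5 flagged sets the array was IL-2 replicate 3, with 11341.4 for Gadd45a (the highest of its group), 1776.2 and 1600.4 for the Gadd45b probe sets 1450971_at and 1449773_s_at, and 3942.7 for Gadd45g (each the lowest). The fifth was 4.5 h replicate 4, with 183.4 for the Gadd45b probe set 1420197_at, against 225.4 to 229.1 on the other 4.5 h arrays. The Gadd45a signal of 11341.4 was also the signal of an array outside the fits, 135 times the highest of the 11 arrays fitted. That array carried muscle transcripts and lacked T cell transcripts, as given above.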

How the results depend on the processing

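With all 12 arrays, IL-2 against 4.5 h gave 1.79 for Gadd45a, 0.64 for Gadd45b and -0.64 for Gadd45g, and IL-2 against 30 min gave 1.64 for Gadd45b. The spread of the array left out enters every fit that holds it. Gadd45a also changed sign for IL-2 against 4.5 h when centred on ribosomal protein genes (0.59) and with array weights (0.14), and never passed the call. Leaving out single arrays gave it -0.51 to 0.11 for IL-2 against 4.5 h, 0.51 to 1.18 for 4.5 h against 30 min and 0.40 to 0.90 for IL-2 against 30 min, in the 4 fits where it passed the filter. It passed neither the 60th percentile filter nor the filter on means over probe sets. Gadd45b at 4.5 h against 30 min was called when centred on array medians (1.08), with a pseudocount of 1 (1.00), as the mean over probe sets (1.17) and by 1449773_s_at (1.72). For IL-2 against 4.5 h it was not called as that mean (0.51), by 1449773_s_at (0.76) or by 1420197_at (-0.70), which also gave 0.082 for IL-2 against 30 min. Using these other probe sets was an alternative chosen after seeing the data. Leaving out single arrays gave Gadd45b 1.41 to 1.52, 0.95 to 1.07 and 2.43 to 2.51 in the order used above, and Gadd45g 0.09 to 0.19, 0.69 to 1.07 and 0.83 to 1.20. Gadd45g with IL-2 against 30 min was called after quantile normalization (1.42), centring on array medians (1.10) or on ribosomal protein genes (1.38), with array weights (1.06), with the replicate block (1.08, limma adjusted p = 0.0216), with the scan day block (1.20) and within the first scan day (1.20). Apart from the choices whose construction shows it, the cause was not tested.

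The labels give the groups the same replicate numbers, but these were not taken as pairs, since the correlation of deviations did not exceed 0.1 in every same-numbered pair. It was 0.13, 0.09 and 0.22 for IL-2 with 30 min (numbers 1, 2 and 4), and over all 10 pairs it ran from -0.02 to 0.22, above 0.1 in 2. Of the 6 IL-2 and 30 min arrays numbered 1, 2 and 4, 5 correlated best with their own number, a weak hint from the data. IL-2 replicate 1 had 0.126 with 30 min replicate 1 and 0.124 with 30 min replicate 2. IL-2 replicate 2 had 0.091 with 30 min replicate 2 and 0.085 with 30 min replicate 1. The count left out 30 min replicate 3, which had 0.165 with IL-2 replicate 4. The replicate block gave 3187, 3578 and 2854 called probe sets against 3281, 3578 and 2859 without it. Over the other alternatives these counts ran from 1022 to 8194, 1013 to 4379 and 931 to 4087, and leaving out single arrays gave 2969 to 3324, 3327 to 3658 and 2557 to 3053. Higher calls made up 54.6%, 48.9% and 59.7% of all calls as reported. They made up 96.5%, 17.2% and 91.1% when centred on ribosomal protein genes, 73.0% for IL-2 against 30 min when centred on array medians, and 42.2%, 48.3% and 48.3% with all 12 arrays.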
